A study of Oryza sativa with 36 samples.

Results

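Meiosis genes were described here in young rice panicles by the 10 gene names DMC1A, DMC1B, PAIR1, PAIR2, PAIR3, ZEP1, MEL1, REC8, SPO11-1 and MER3, matched to the RefSeq symbol or synonyms of each probe set's gene. Of these, 5 genes had a probe set, DMC1A, PAIR1, PAIR2, MEL1 and MER3, and MER3 had a pair of them, which gave 6 probe sets of the 57194 tested. DMC1A and DMC1B are synonyms of a single RefSeq gene with 1 probe set, so the level given as DMC1A cannot be assigned to either copy. The name ZEP1 matched a seventh probe set, but its gene carries the synonyms ABA1 and OsABA1 and is zeaxanthin epoxidase, an enzyme of abscisic acid synthesis, so it was not counted as a meiosis gene. No probe set was matched for PAIR3, REC8, SPO11-1 or the synaptonemal complex gene ZEP1.

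The panicles were 2 cm long, a length that the study's methods place at the formation of the pollen mother cells, and came from plants grown in enclosed plots that were either left to dry from the later tillering stage (drought-stressed) or kept well watered. There were 6 varieties, MILT1444, EMATAYIN, DOURADOAGULHA, HUHAN3, KHAUMEO and NIPPONBARE, with 3 arrays for each variety and treatment, 36 arrays in all. The study classes KHAUMEO and NIPPONBARE as drought sensitive and the other 4 as tolerant, and DOURADOAGULHA and KHAUMEO as indica and the other 4 as japonica, so each class is only a few single varieties. The methods also state that the probe sets were designed on the Nipponbare genome annotation, so in the other varieties a lower level and a weaker probe match cannot be told apart.

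Meiosis is the division in which homologous chromosomes pair, exchange DNA and separate. In rice it takes place in the pollen mother cells of the anther and the megaspore mother cell of the ovule, a small fraction of the cells of a panicle. MEL1 is an argonaute protein of the germ cells that is needed for their normal entry into and passage through meiosis. PAIR1 is a coiled-coil protein needed for the programmed DNA breaks, PAIR2 is a HORMA-domain protein of the chromosome axis and the rice homologue of Arabidopsis ASY1, DMC1 is the meiosis-specific recombinase that carries out strand exchange, and MER3 is a DNA helicase of the interfering crossover pathway. In a whole panicle, fewer meiotic cells and less RNA per cell cannot be told apart.

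The treatment labels were checked on RAB16B and RAB21, dehydrins that accumulate under drought, and in each of the 6 varieties all 3 drought-stressed arrays lay above all 3 well watered arrays for both genes, with changes between 2.38 and 4.98 on the log2 scale. Median intensities of the arrays lay between 55.8 and 68.9. None of the 5 meiosis genes had a value at the floor of 1. Their values lay between 49.0 and 141.3 for DMC1A, 49.6 and 208.7 for PAIR1, 235.5 and 2262 for PAIR2, 1552 and 4031 for MEL1, and 95.6 and 229.8 for the MER3 probe sets. By percentile on the array, DMC1A lay between 42.0 and 66.1 and PAIR1 between 45.3 and 68.5. Without detection calls it is not known in which groups these 2 genes were above background. The sizes of their differences and drought changes are therefore uncertain in all varieties. Levels of different probe sets were not compared with each other, since each has its own probe response. Differences below are on the log2 scale of the intensity, with the standard error (SE) of a limma fit over all 36 arrays and p-values adjusted by the Benjamini-Hochberg method over all 57194 probe sets. A difference was called at an adjusted p of at most 0.05 together with at least a 2-fold change.

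**Figure D1:**
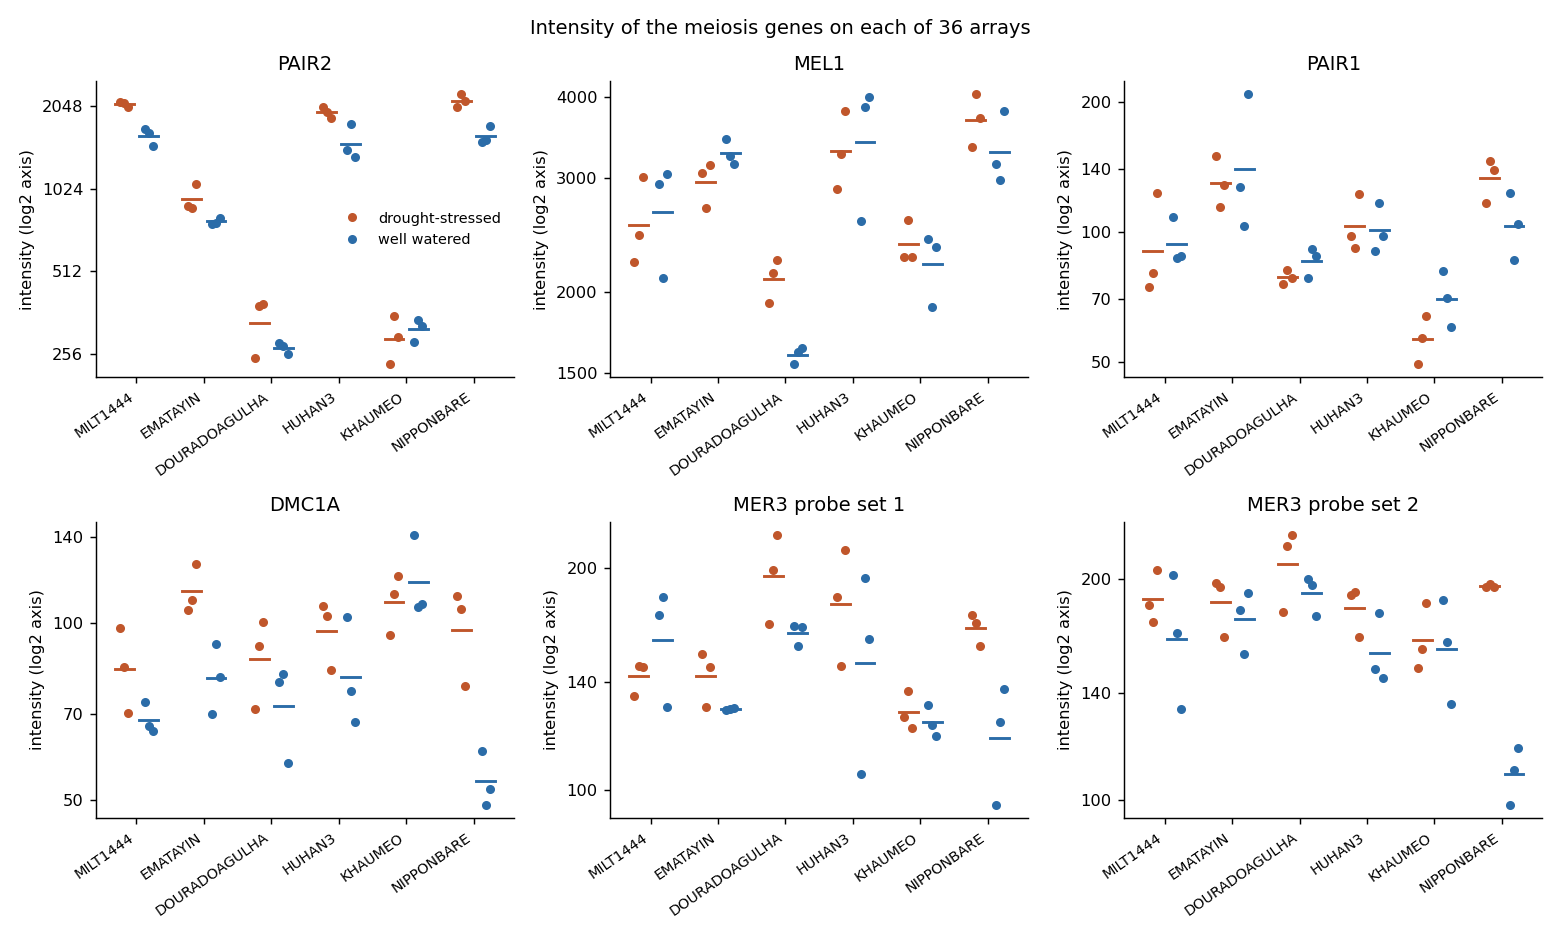
Intensity of the 5 meiosis genes (6 probe sets) on a log2 axis in 6 varieties, drought-stressed arrays in orange and well watered arrays in blue, 3 arrays each, with a bar at the geometric mean. PAIR2 lay between 235.5 and 389.0 in DOURADOAGULHA and KHAUMEO and between 760.8 and 2262 in the other 4 varieties.

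PAIR2 differed most widely between varieties of the 5 genes, with low values in both indica varieties, intermediate values in EMATAYIN and high values in MILT1444, HUHAN3 and NIPPONBARE. In DOURADOAGULHA its intensities were 247.4, 383.4 and 389.0 on drought-stressed arrays and 280.7, 274.0 and 255.6 on well watered arrays. KHAUMEO gave 235.5, 353.2 and 295.4 on drought-stressed arrays and 281.7, 341.4 and 324.0 on well watered arrays. EMATAYIN gave 888.5, 873.9 and 1067 on drought-stressed arrays, against 760.8, 771.2 and 804.2 on well watered arrays. No array of an indica variety reached any array of EMATAYIN. MILT1444 gave 2122, 2102 and 2029 on drought-stressed arrays, against 1686, 1632 and 1465 on well watered arrays. HUHAN3 gave 2029, 1959 and 1858 on drought-stressed arrays, against 1415, 1770 and 1341 on well watered arrays. NIPPONBARE gave 2041, 2262 and 2140 on drought-stressed arrays, against 1523, 1550 and 1731 on well watered arrays. Their arrays overlapped with each other within a treatment, apart from HUHAN3, which lay just below NIPPONBARE under drought, and none reached down to EMATAYIN or to an indica variety.

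Among well watered panicles PAIR2 differed between varieties (limma F = 142, adjusted p = 4.54e-17), with a span of 2.57 between the lowest and the highest of the 6 variety means. Of all probe sets, 34.0% passed this F test at adjusted p alone and 14.5% also had a span of at least 2-fold. PAIR2 was 5.92-fold lower in DOURADOAGULHA than in NIPPONBARE (−2.57, SE 0.14, adjusted p = 5.54e-15), a comparison in which 8.41% of all probe sets were called. It was 5.08-fold lower in KHAUMEO than in NIPPONBARE (−2.34, SE 0.14, adjusted p = 4.56e-14), where 8.31% were called. EMATAYIN was 2.05-fold below NIPPONBARE (−1.04, SE 0.14, adjusted p = 2.71e-06), where 4.50% were called. In all, 10 of the 15 pairs of well watered varieties were called for PAIR2, against 4.91% of all tests over the 30 pairs of both treatments, and an eleventh, EMATAYIN against HUHAN3, passed the adjusted p with a difference under 2-fold (−0.94). The 4 pairs that did not pass were DOURADOAGULHA with KHAUMEO and the 3 pairs among MILT1444, HUHAN3 and NIPPONBARE.

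Under drought PAIR2 also differed between varieties (F = 179.7, adjusted p = 2.28e-18, span 2.88), and the same 4 pairs did not pass. The share of all probe sets that passed this F test was 32.9% at adjusted p alone, and 14.5% with the 2-fold span. All 11 pairs of drought-stressed varieties that passed for PAIR2 were called, beside 42855 calls in 857910 tests over all probe sets. The largest of these was KHAUMEO against NIPPONBARE (−2.88, SE 0.14, adjusted p = 2.98e-16). On well watered arrays both indica varieties lay below every array of the 4 japonica varieties, by at least 2-fold in all means, for 1.49% of all probe sets, and on drought-stressed arrays for 1.78%. PAIR2 was among the 1.42% that did so under both treatments, and the other 5 meiosis probe sets were not. This way of counting was chosen after the values of PAIR2 were seen.

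MEL1 was the other gene with low values in DOURADOAGULHA. Its intensities there were 1927, 2144 and 2241 on drought-stressed arrays, against 1552, 1619 and 1641 on well watered arrays. KHAUMEO gave 2268, 2586 and 2268 on drought-stressed arrays and 2413, 1899 and 2347 on well watered arrays. In NIPPONBARE they were 3345, 4031 and 3711 on drought-stressed arrays and 3149, 2973 and 3795 on well watered arrays. The well watered arrays of DOURADOAGULHA lay below all other arrays of the series for MEL1. Well watered varieties differed (F = 15.6, adjusted p = 2.91e-06, span 1.09), and 3 of the 15 pairs were called. DOURADOAGULHA was lower than HUHAN3 (−1.09, SE 0.15, adjusted p = 2.60e-06) and NIPPONBARE (−1.04, adjusted p = 4.88e-06), and EMATAYIN was higher than DOURADOAGULHA (1.03, adjusted p = 6.47e-06). Drought-stressed varieties also differed in MEL1 (F = 7.94, adjusted p = 6.01e-04) but with a span of 0.81, and no pair was called, while 6 pairs passed the adjusted p alone.

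PAIR1 was low in KHAUMEO. It had intensities of 49.6, 56.9 and 64.1 on drought-stressed arrays of KHAUMEO and 81.5, 70.3 and 60.2 on well watered arrays. NIPPONBARE gave 116.9, 146.1 and 139.8 on drought-stressed arrays and 123.7, 86.2 and 104.3 on well watered arrays, and EMATAYIN gave 150.2, 114.2 and 128.9 on drought-stressed arrays and 127.7, 103.4 and 208.7 on well watered arrays. No PAIR1 array of KHAUMEO overlapped with these varieties under drought. Drought-stressed varieties differed (F = 11.0, adjusted p = 5.38e-05, span 1.24). KHAUMEO was lower than NIPPONBARE (−1.24, SE 0.20, adjusted p = 1.74e-05), and EMATAYIN was higher than KHAUMEO (1.20, SE 0.20, adjusted p = 3.55e-05). In KHAUMEO 2 of the 3 drought-stressed values were below the median intensity of their array, and whether they were above background is not known, so the size of these differences is uncertain. Well watered varieties also differed for PAIR1 (adjusted p = 0.00597), with a span of 0.999 that stays just under 2-fold, and none of the 15 pairs was called.

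DMC1A was lowest in well watered NIPPONBARE and highest in well watered KHAUMEO. KHAUMEO gave 95.3, 112.3 and 120.3 on drought-stressed arrays and 141.3, 106.4 and 107.9 on well watered arrays. NIPPONBARE gave 111.1, 105.7 and 78.1 on drought-stressed arrays, against 60.4, 49.0 and 52.2 on well watered arrays. In the 4 other varieties drought-stressed arrays lay between 70.3 and 126.1 and well watered arrays between 57.7 and 102.3. The 3 drought-stressed NIPPONBARE arrays were all above its 3 well watered arrays, and among well watered varieties only DOURADOAGULHA overlapped with NIPPONBARE. Well watered varieties differed (F = 8.96, adjusted p = 2.69e-04), and KHAUMEO was higher than NIPPONBARE (1.13, SE 0.18, adjusted p = 1.03e-05), the only DMC1A pair that was called. All 3 well watered NIPPONBARE values were below the median intensity of their array, and without detection calls it is not known whether they were above background, so the size of a difference from them is uncertain. Drought-stressed varieties did not pass for DMC1A (F = 1.95, adjusted p = 0.230, span 0.44).

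The second MER3 probe set had its lowest values in the same group, well watered NIPPONBARE. It gave 195.0, 197.2 and 195.5 on drought-stressed arrays of NIPPONBARE, against 98.7, 110.0 and 117.7 on well watered arrays. In the other 5 varieties the drought-stressed arrays lay between 151.4 and 229.8 and the well watered arrays between 133.4 and 202.5, so that well watered NIPPONBARE lay below every other array. Each of the 5 other well watered varieties was higher than NIPPONBARE, by 0.55 to 0.82 with adjusted p between 2.67e-05 and 0.00981, and none reached 2-fold. Drought-stressed varieties did not pass for this probe set (adjusted p = 0.403, span 0.34). The first MER3 probe set gave 172.9, 168.6 and 156.7 on drought-stressed NIPPONBARE arrays, against 95.6, 123.6 and 137.3 on well watered arrays, which overlapped with other well watered varieties. Its F test did not pass among well watered varieties (adjusted p = 0.0734) and passed among drought-stressed ones (adjusted p = 0.0281, span 0.61). Neither was firm, since the first passed without any 1 of 4 well watered arrays (MILT1444, NIPPONBARE and a pair of HUHAN3) and the second did not pass without any 1 of 4 drought-stressed arrays of DOURADOAGULHA and KHAUMEO. Across the 12 group means the MER3 probe sets correlated with r = 0.70, as a description over groups that share their arrays.

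Over the 6 probe sets, 14 of 90 differences between well watered varieties and 13 of 90 between drought-stressed varieties were called, and PAIR2 held 10 and 11 of them. Over all probe sets 4.91% of such tests were called, with both treatments pooled. At adjusted p alone 34 and 25 of 90 passed, against 13.2% of all tests under either treatment. The F test among well watered varieties passed for 5 of the 6, beside 34.0% of all probe sets. Among drought-stressed varieties it passed for 4 of the 6, beside 32.9% of all probe sets.

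Drought changes of PAIR2 were small beside its differences between varieties, at most 1.34-fold against up to 7.38-fold. This did not hold for every probe set. In NIPPONBARE the second MER3 probe set changed 1.805-fold with drought, against at most 1.764-fold between varieties. DMC1A changed 1.81-fold there, against at most 2.19-fold between varieties. None of the 36 changes (6 probe sets in 6 varieties) was called at 2-fold. Over all probe sets the same rule called 0.670% in MILT1444, 0.0629% in EMATAYIN, 0.315% in DOURADOAGULHA, 0.624% in HUHAN3, 0.351% in KHAUMEO and 0.663% in NIPPONBARE. At adjusted p alone 4 of the 36 changes passed, all higher and all in NIPPONBARE, where 11.0% of all probe sets passed and 5.32% passed as higher. None passed in the other varieties, where the shares of all probe sets were 3.43% in MILT1444, 0.110% in EMATAYIN, 3.02% in DOURADOAGULHA, 4.15% in HUHAN3 and 1.65% in KHAUMEO. An unadjusted p under 0.05 was reached by 9 of the 36 changes, and by 19.3% of all changes over the probe sets and varieties. The changes lay between 0.17 and 0.86 in NIPPONBARE and between −0.31 and 0.10 in KHAUMEO.

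DMC1A was higher in drought-stressed than in well watered NIPPONBARE (0.86, SE 0.18, adjusted p = 0.00429), where the well watered side is the low level described above. Without the third drought-stressed NIPPONBARE array this change was 1.01 and passed the 2-fold rule. The second MER3 probe set was 1.81-fold higher (0.85, SE 0.14, adjusted p = 7.62e-04), and the first was 1.41-fold higher with an adjusted p just under the threshold (0.50, SE 0.16, adjusted p = 0.0491). PAIR2 was 1.34-fold higher in NIPPONBARE (0.42, SE 0.14, adjusted p = 0.04995). The results for PAIR2 and the first MER3 probe set were not firm, since leaving out a single array lifted the adjusted p above 0.05 for 26 of 36 arrays for PAIR2 and 27 of 36 for the first MER3 probe set, with highest values of 0.155 and 0.193. PAIR1 changed by 0.37 (adjusted p = 0.231) and MEL1 by 0.16 (adjusted p = 0.506) in NIPPONBARE.

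For PAIR2 the 3 drought-stressed arrays lay above the 3 well watered arrays in MILT1444, EMATAYIN, HUHAN3 and NIPPONBARE, as given above, and overlapped with them in both indica varieties. Over the 36 changes 11 did not overlap with the drought-stressed arrays higher, of which PAIR2 held 4 and NIPPONBARE 4, and 1, MEL1 in EMATAYIN, did not overlap with them lower. Over all probe sets and varieties 12.2% lay apart with the drought-stressed arrays higher. PAIR2 had changes of 0.39 for MILT1444, 0.27 for EMATAYIN, 0.30 for DOURADOAGULHA, 0.38 for HUHAN3 and −0.11 for KHAUMEO (SE 0.14 each, adjusted p between 0.114 and 0.734). DMC1A had changes of 0.29 for MILT1444, 0.49 for EMATAYIN, 0.27 for DOURADOAGULHA, 0.26 for HUHAN3 and −0.11 for KHAUMEO (SE 0.18 each, adjusted p between 0.268 and 0.800).

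**Figure D2:**
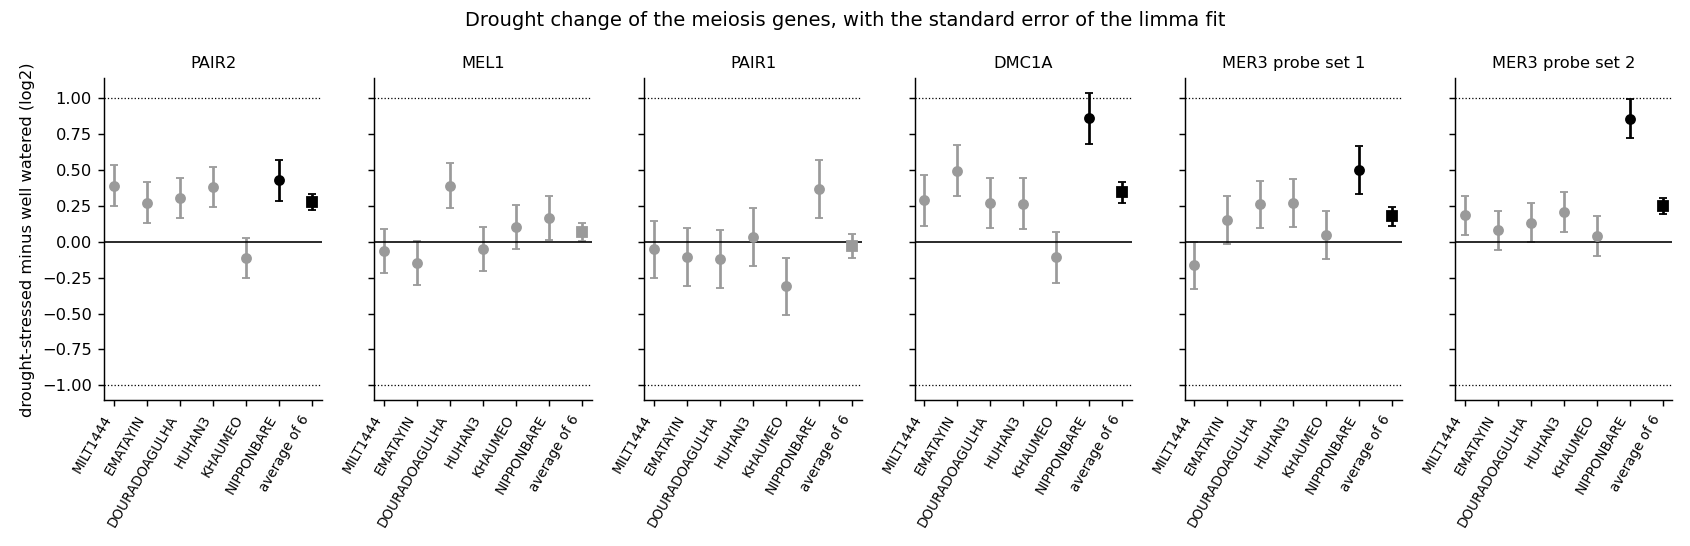
Log2 drought change of the 6 meiosis probe sets (drought-stressed less well watered) in each variety (circles) and averaged over the 6 varieties (squares), with the standard error of the limma fit. Black marks passed an adjusted p of 0.05, dotted lines mark 2-fold, and the NIPPONBARE changes of DMC1A (0.86) and the second MER3 probe set (0.85) stood highest.

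Averaged over the 6 varieties, 4 of the 6 probe sets were higher under drought at adjusted p alone, where 20.6% of all probe sets were higher, 21.5% were lower and 42.1% passed in either direction. PAIR2 was higher by 0.28 (SE 0.06, adjusted p = 4.44e-04), DMC1A by 0.34 (SE 0.07, adjusted p = 4.38e-04), and the MER3 probe sets by 0.18 (SE 0.07, adjusted p = 0.0372) and 0.25 (SE 0.06, adjusted p = 8.35e-04). PAIR1 (−0.03, SE 0.08, adjusted p = 0.773) and MEL1 (0.07, SE 0.06, adjusted p = 0.419) did not pass. None of the 6 averages was called at 2-fold, where 0.383% of all probe sets were. The median of the 6 averages was 0.21, beside a median of −0.01 over all probe sets. Without the arrays of replicate number 2 only PAIR2 passed of the 6. The first MER3 probe set did not pass whichever of the 3 replicate numbers was left out (limma adjusted p between 0.064 and 0.201).

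Whether the drought change differed between varieties was tested with an F test of the interaction. It passed for none of the 6 probe sets, and 0.0542% of all probe sets passed. The lowest adjusted p among the meiosis genes was 0.300 for the second MER3 probe set (unadjusted p = 0.00227), followed by 0.561 for DMC1A (unadjusted p = 0.0185). The larger changes in NIPPONBARE were not shown to differ from those in other varieties, although both MER3 probe sets passed this test when arrays were weighted by their quality (adjusted p = 0.0419 and 0.0142). Tolerant minus sensitive varieties differed in their mean drought change by 0.18 for PAIR2, −0.04 for DMC1A, −0.09 for PAIR1, −0.10 for MEL1, and −0.14 and −0.30 for the MER3 probe sets. An exact permutation test over the 15 ways to choose the tolerant varieties gave two-sided p between 0.333 and 1.0. Its smallest possible p is 0.0667, so it could not pass 0.05 for any gene and does not decide whether the classes differ.

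The zeaxanthin epoxidase probe set that shares the name ZEP1 was higher under drought by 0.29 on average (SE 0.06, adjusted p = 6.03e-04), with 0.47 in NIPPONBARE (adjusted p = 0.0486).

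Other genes of meiosis were taken from lists of genes known for the same steps, with 1 probe set a gene. For DNA breaks and repair 15 of 44 listed genes had a probe set, of which 4 were higher and 5 lower under drought on average at adjusted p, beside 20.6% and 21.5% of all probe sets. RPA1B and RPA2A, subunits of the single-strand binding protein RPA that also acts in replication, fell by 0.60 and 0.53 (adjusted p = 6.84e-05 and 2.25e-04), while RPA2C rose by 0.27 (adjusted p = 4.54e-07). The 3 other meiosis lists had too few probe sets to be read against these shares. For crossovers 4 of 15 had a probe set. MSH5, a MutS homologue of the same pathway as MER3, rose by 0.30 (adjusted p = 0.00108) and SHOC1 by 0.32 (adjusted p = 9.56e-05), HEI10 by 0.13 (adjusted p = 0.0288), and the exonuclease EXO1 fell by 0.35 (adjusted p = 0.0151). For cohesion, axis and segregation 4 of 26 had a probe set, and 2 rose, the kinesin PSS1 by 0.46 (adjusted p = 6.11e-06) and the meiotic cyclin SDS by 0.37 (adjusted p = 6.58e-04). For germ cell entry 5 of 13 had a probe set and 3 rose, among them AGO18, an argonaute, by 0.20 (adjusted p = 0.00674). The list medians were 0.03 for breaks and repair, 0.21 for crossovers, 0.25 for cohesion and 0.20 for germ cell entry. Of the genes of DNA replication 11 of 20 were lower and 2 higher on average, with a median of −0.20, beside 21.5% lower and 20.6% higher over all probe sets, and their part in the values of the meiosis genes was not tested.

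Between well watered varieties, 7 of 15 genes of breaks and repair, 3 of 4 of crossovers, 1 of 4 of cohesion and 2 of 5 of germ cell entry passed the F test, which 34.0% of all probe sets passed. SPO11-4, a relative of the meiotic nuclease SPO11-1, shared the low indica levels of PAIR2. Its well watered geometric means were 1358 in DOURADOAGULHA and 1258 in KHAUMEO, against 4133 to 4455 in the other 4 varieties (F = 151.7, adjusted p = 2.07e-17). AGO18 had 68.3 in DOURADOAGULHA and 62.8 in KHAUMEO, against 263.2 in EMATAYIN and 339.9 to 514.4 in the other 3 (F = 178.5, adjusted p = 2.79e-18). PAIR2, SPO11-4 and AGO18 were the genes of the meiosis lists whose indica arrays all lay below the japonica arrays by at least 2-fold under both treatments. Of all probe sets 1.42% met this rule, which was chosen after the values of PAIR2 were seen. For these genes too, a lower level and a weaker probe match in the indica varieties cannot be told apart. MSH5 was lowest in DOURADOAGULHA among well watered varieties, with 298.2 against 536.9 to 676.5 in the other 5.

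The genes whose pattern was most like that of each meiosis gene were found by the correlation of 12 group means, over named genes whose means span at least 2-fold, as a description of groups that share their arrays. For PAIR2 they were chitinase (r = 0.98), AGO18 (0.97), Pir7b (0.97), OsSAP7 (0.96) and the hexokinase HXK4 (0.96). OsSAP7 had well watered means of 10.7 in DOURADOAGULHA and 10.8 in KHAUMEO, against 81.2 to 124.8 in the other varieties. For MEL1 they were TGAL4, OsPRDA1, GST1, OsPDIL1-3 and OsTF1 (r between 0.89 and 0.90). PAIR1 was most like OsPP2C32 (0.88), KIN10A (0.87), another probe set of the meiotic cyclin OsSDS (0.87), XOAT7 (0.86) and DAPB1 (0.85). For DMC1A the heading date gene Hd1 (0.83), DTH7 (0.81), GLUA-2 (0.80), OsC3H35 (0.80) and OsPDIL1-2 (0.80) stood nearest. The nearest to the first MER3 probe set were cob, gid1, RLK10, TDC2 and OsSig2B (r between 0.74 and 0.80), and to the second GLT2 (0.90), ziga1, OsSPX5, RLK10 and LFL1 (r between 0.78 and 0.80).

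**Figure D3:**
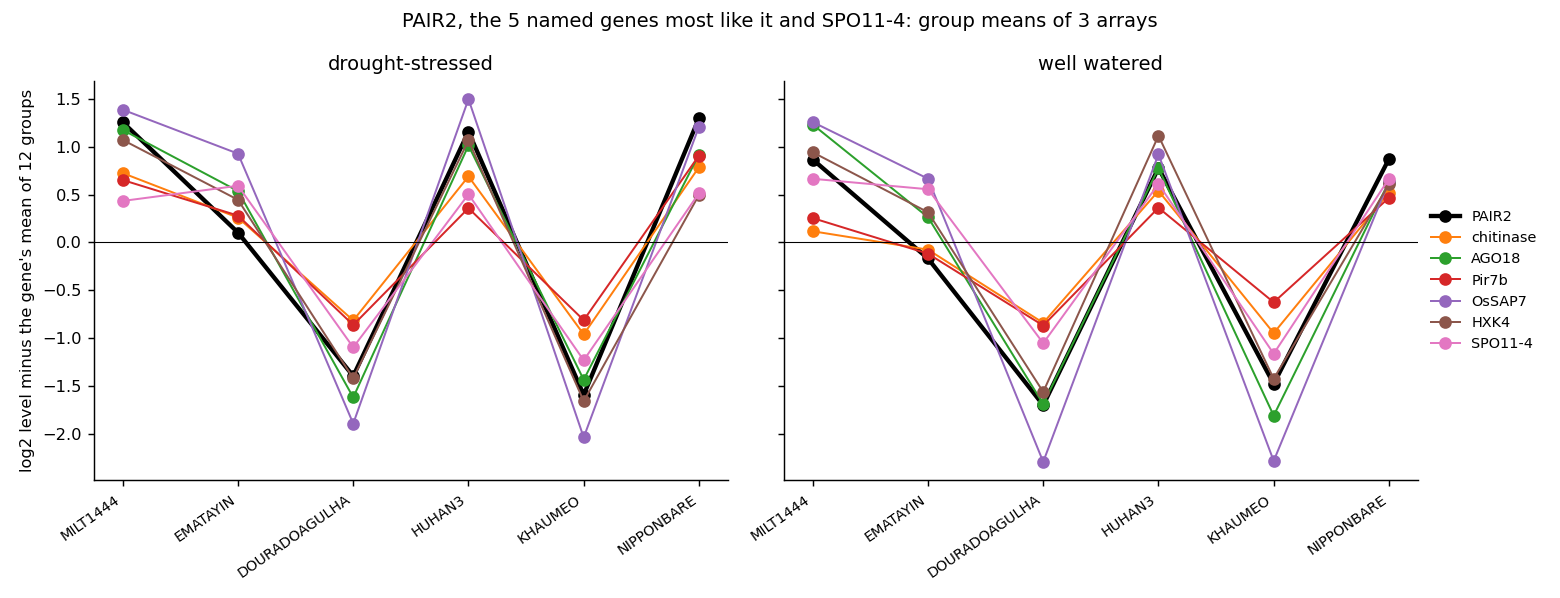
Log2 group means (3 arrays each) of PAIR2, the 5 named genes most like it and SPO11-4, each less its own mean of 12 groups, in drought-stressed (left) and well watered (right) panicles. All 7 genes were lowest in DOURADOAGULHA and KHAUMEO under both treatments.

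Among the meiosis genes themselves PAIR2 and MEL1 had the closest pattern over the 12 group means (r = 0.79), followed by the MER3 probe sets (0.70) and PAIR1 with MEL1 (0.67). PAIR2 and DMC1A had r = −0.30. Over the 6 drought changes the highest values were 0.94 for PAIR1 with the second MER3 probe set and 0.90 for PAIR1 with DMC1A. These were picked as the highest and rest on 6 points each. No PAIR1 drought change passed in any variety, and the correlations were not tested.

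Panicles of the same length can differ in stage between varieties, so markers of other cells were set beside the meiosis genes. Of 11 tapetum and pollen wall genes on the list with a probe set, MADS2 is also a floral organ gene and made up 52.0 to 81.5% of their summed intensity, so the sum is given for the other 10. It lay between 3854 and 4033 on drought-stressed NIPPONBARE arrays, against 1246 to 3601 in the other varieties. On well watered arrays it lay between 3844 and 4524 in NIPPONBARE, against 1174 to 3100 in the other varieties. NIPPONBARE stood above every other array of the same treatment, and none of these genes had a value at the floor of 1. MADS2 was set aside after its values were seen. Of the other 10 genes, GAMYB and TIP2 had the highest mean log2 levels over all arrays (9.88 and 9.07), so they weighed most in the sum. TDR, EAT1, TIP2 and RAFTIN1 are named here since their F between well watered varieties was the largest of this list. They do not stand for the whole list. TDR, a transcription factor of tapetum degeneration, had well watered geometric means of 661.1 in NIPPONBARE and 36.8 to 224.6 in the other varieties (F = 20.0, adjusted p = 2.77e-07). EAT1, which acts in the same tapetum pathway, had 381.9 in NIPPONBARE and 40.6 to 148.2 in the others (F = 9.44, adjusted p = 1.84e-04). Well watered NIPPONBARE, where DMC1A and the second MER3 probe set were lowest, had the highest sums of the 10 tapetum genes among the well watered varieties. The other meiosis genes were not low there. PAIR2 had a geometric mean of 1598.5, against 269.9 to 1591.8 in the other well watered varieties. MEL1 had 3287.5, against 1603.6 to 3409.8, and PAIR1 had 103.6, against 70.2 to 140.2. In drought-stressed NIPPONBARE, TDR was at 509.7 and EAT1 at 487.6, and RAFTIN1, a protein of the pollen wall, was at 76.8, against 223.6 in well watered NIPPONBARE (−1.54, SE 0.44, adjusted p = 0.0251). The RAFTIN1 arrays overlapped, with 41.3 to 119.2 in drought-stressed and 95.1 to 456.0 in well watered NIPPONBARE.

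The sum of 12 genes of green tissue was also higher in NIPPONBARE. It lay between 18987 and 19920 on drought-stressed arrays, against 7212 to 18596 in the other varieties. On well watered arrays it lay between 20709 and 21294, against 7172 to 19189. CAB2R had the highest mean log2 level of the 12 (12.55), so it weighed most in the sum. Of those with the largest F or average change, RCA, FBP1 and PORB were highest in well watered NIPPONBARE. CHLI and CHLD were highest in well watered EMATAYIN. The sum of 18 floral organ MADS genes lay between 60363 and 60768 on drought-stressed NIPPONBARE arrays, against 50216 to 58914 in the others, and overlapped between varieties in well watered panicles. For the indica varieties, where PAIR2 was low, the sum of the 10 tapetum genes in well watered panicles lay between 1213 and 1534 in DOURADOAGULHA and between 1849 and 2358 in KHAUMEO. Among well watered varieties DOURADOAGULHA had the lowest geometric means of TDR (36.8), EAT1 (40.6), TIP2 (275.0) and RAFTIN1 (27.2), while KHAUMEO lay between other varieties for each, with 168.9 for TDR and 78.9 for EAT1. MILT1444, where PAIR2 was high, had 61.1 for TDR and 62.4 for EAT1. The part of these cell types and of stage in the levels of the meiosis genes was not tested.

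**Figure D4:**
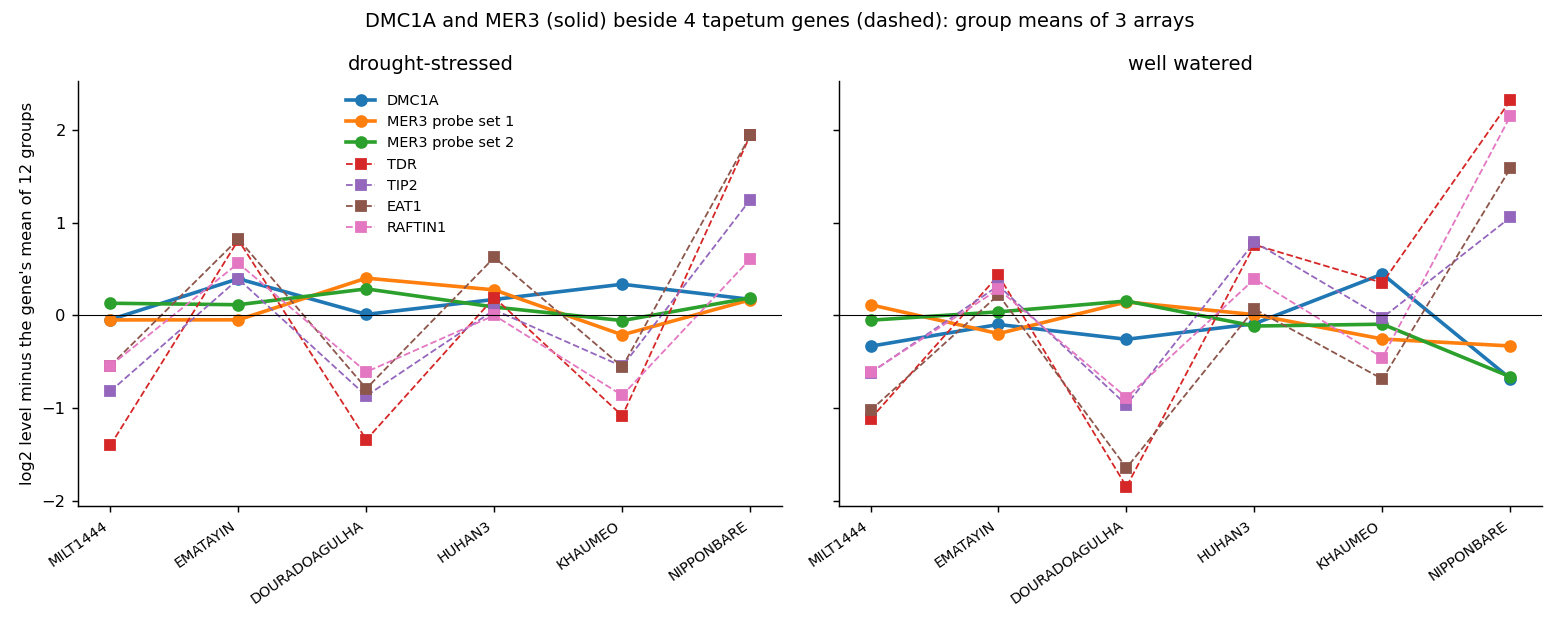
Log2 group means (3 arrays each) of DMC1A and the MER3 probe sets (solid) and of 4 tapetum genes (dashed), each less its own mean of 12 groups, in drought-stressed (left) and well watered (right) panicles. The 4 tapetum genes were picked for the largest F of their list between well watered varieties. Other genes of that list are not drawn. In well watered NIPPONBARE the 4 drawn tapetum genes were at their highest well watered level and DMC1A and the second MER3 probe set at their lowest. PAIR2, MEL1 and PAIR1 are not drawn and were not low in that group.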

How the data were processed

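RNA of 36 young panicle samples was hybridized to an Affymetrix rice array. The deposited values are intensities, which the authors made with RMA of the affy package (version: not given in the sources used here) and which are linear, from 1.0 to 21699, where RMA normally gives log2 values. No source names a step between RMA and the deposited values.

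Intensities were log2 transformed and the 187 control probe sets left out. limma 3.58.1 in R 4.3.3 was fitted over all arrays with 12 group means and default eBayes, and was tested on simulated data. The threshold follows the study's methods. Labels show no separate plants per array (the methods name independent experiments), so p-values measure the spread between these arrays. For arrays, their number limits the precision.

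Probe sets were named from the platform annotation (22436 with 1 gene, 95 with several, 34850 with none) and RefSeq synonyms (assembly ASM3414082v1). Of 255 listed entries 126 had a probe set, and 16 matches to another gene of the same name were left out. Members and lists were chosen with earlier results of these data known. Genes outside the 5 were named by F (4 a list), average change (2 a list) or likeness; HEI10 and RPA2C belong to the first. Replicate numbers did not pair the arrays: of 18 same-numbered pairs within a variety, 4 correlated above 0.1 (range −0.301 to 0.202). Alternatives covered the fit, filter, normalization, scaling, low values, array weights and left-out arrays. Detection calls were not used here.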

Additional observations from a re-analysis of the deposited data

Results flagged for a closer look

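The drought change of MEL1 ran in opposite directions in DOURADOAGULHA and EMATAYIN. All 3 drought-stressed arrays lay above the 3 well watered arrays in DOURADOAGULHA (0.389, SE 0.15, limma adjusted p = 0.154), and all 3 lay below them in EMATAYIN (−0.148, adjusted p = 0.743). The difference between this pair of varieties was not tested on its own, and the interaction F over the 6 varieties had an adjusted p of 0.815. Groups of 3 arrays were too small for a check of single outlying arrays.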

How the results depend on the processing

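The count of meiosis probe sets with a drought change called at 2-fold in a variety was 0 of 36, with 4 under no fold threshold and 0 to 1 when single arrays were left out. With no fold threshold 34 of 90 differences between well watered varieties and 25 of 90 between drought-stressed varieties passed. Under either treatment 13.2% of all tests did so. The count of average changes that passed (4 of 6) ranged from 1 to 3 when the arrays of a replicate number were left out. The interaction passed for 2 probe sets, both of MER3, with array weights (adjusted p = 0.0419 and 0.0142), and for 0 otherwise. The cause was not tested. Scaling to ACT1 moved the average change of all probe sets to a median of 0.168, beside which PAIR1 averaged 0.15, MEL1 0.25 (adjusted p = 0.0010), and the KHAUMEO changes were 0.11 for DMC1A and 0.11 for PAIR2. Leaving out arrays gave −0.18 to 0.022 for DMC1A and −0.25 to 0.038 for PAIR2 in KHAUMEO, and −0.088 to 0.037 for the PAIR1 average, so none of these has a settled sign. The first MER3 probe set lost its average change with quantile normalization (adjusted p = 0.188) and array weights (0.217). With a replicate block its average change had an adjusted p of 0.0722 and the PAIR2 change in NIPPONBARE 0.0631. All probe sets called in KHAUMEO numbered 107 with the block, against 201 without it. Whether same-numbered arrays share an experiment is not known. The DMC1A change in NIPPONBARE had an adjusted p of 0.0504 when each variety was fitted alone. The F test of the first MER3 probe set among well watered varieties passed with quantile normalization, ACT1 scaling, array weights and the brightness filter. The called variety differences of PAIR2 kept their sign and passed in every alternative run. All 6 probe sets were above the brightness filter, and 3 arrays a group limit what small changes can pass.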
